A study of Mus musculus with 12 samples.

Results

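The 4 mouse genes Pgk1, Fth1, Tmsb4x and Eno1b were examined out of 21738 protein-coding genes, with every listed peak at their promoters and in their bodies, 19 of 160204 deposited peaks. They were chosen by the listing of an ASXL1 ChIP-seq peak in at least 1 library within 2 kb of the canonical transcription start site (TSS). The ASXL1 values below therefore describe how the genes were selected, and nothing is tested with them. The description "highly expressed" that came with this choice could not be checked, because the data hold no expression values. The centre of the results is where inside each gene the peaks lie: at Pgk1 5 of 6 straddled the TSS and the other ended just before it, at Fth1 they lay on the first exon, in part reaching upstream of it, and on the last exon, at Tmsb4x 3 of 5 lay on the last exon, and at Eno1b the only peak spanned the base where a copy of the Eno1 transcript begins.

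The cells were c-Kit+ mouse bone marrow cells, labelled as haematopoietic stem and progenitor cells and given the genotype "mock". All 12 libraries came from cells carrying a BAP1 retrovirus, with a second retrovirus that encoded an ASXL1 form or nothing. ASXL1 and BAP1 ChIP-seq was made with ASXL1 (1-590), a truncated form, and with its mutant 10RA, labelled condensation-impaired; the pulled-down protein carried an HA tag in each case (HA-BAP1 or HA-ASXL1). H2AK119ub was profiled with CUT&RUN, where a nuclease guided by an antibody cuts out the marked fragments. One set of 4 such libraries held ASXL1 (1-590), 10RA, 25RA (condensation-defective per its label) and an empty vector control. The other set held ASXL1 (1-1067), its charge-neutralized mutants 34DN and 36EQ, and its own empty vector control. With 1 library for each condition, differences between them carry no replicate check, and intervals on pileups (exact Poisson, 95%) cover counting error only. The animals' strain, age and number were not given in the sources used here, nor was the promoter of the retroviruses. The identity of the cells could not be checked with marker genes, since a peak list does not measure RNA.

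As background, BAP1 is the enzyme that removes ubiquitin from histone H2A, and ASXL1 is the cofactor that activates it. H2AK119ub, that ubiquitin mark on a lysine of H2A, is laid down by Polycomb repressive complex 1. Pgk1 encodes phosphoglycerate kinase of glycolysis, and its promoter is widely used to drive genes in vectors. Fth1 encodes the ferritin heavy chain, which oxidizes and stores iron. Tmsb4x encodes thymosin beta 4, a peptide that binds actin monomers. Eno1b is an enolase gene annotated as a retrogene, a copy of a reverse-transcribed messenger RNA, of the glycolytic enolase gene Eno1.

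A promoter peak was listed at Pgk1 in 6 of 12 libraries, at Fth1 in 5, at Tmsb4x in 4 and at Eno1b in 1. None of the 4 genes had a peak in either BAP1 ChIP-seq list, at the promoter or in the body. In those lists 0.363% of all protein-coding genes had a promoter peak with 1-590 and 0.552% with 10RA, so over all genes one without it was the usual case. For ASXL1 the shares were 1.06% with 1-590 and 0.455% with 10RA. Pgk1 was listed in both ASXL1 libraries, Tmsb4x and Eno1b only with 1-590, and Fth1 only with 10RA; these counts are what the choice of genes fixed. Across the genome 315 genes had an ASXL1 promoter peak in either library and 15 in both. Of the 315, 299 had no promoter peak in either BAP1 list. Of the 15, only 5 had none, Pgk1 among them, so there a gene without one was the less usual case. In the H2AK119ub lists of the 590 set a promoter peak was common, at 55.2% of genes in 1-590, 41.3% in 10RA, 47.8% in 25RA and 40.5% in the vector control. Of the 4 genes, 2, 3, 3 and 2 had one there, so membership by itself was near the background. In the 1067 set the shares were 9.21% in 1-1067, 6.96% in 34DN, 8.52% in 36EQ and 7.44% in vector, and only Pgk1 in 36EQ was listed.

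The 300 bases before the TSS of Pgk1 and Fth1 are shown because the peaks of these genes met them. The Pgk1 stretch holds the summits of 5 of its 6 peaks. Peaks of the 1-590 and 10RA H2AK119ub lists reached into the Fth1 stretch, while those of 25RA and vector did not. Both were read from GRCm39, plus strand, and capitals mark the GC box (GGGCGG on either strand) and the CCAAT box (CCAAT on either strand).
Pgk1, chrX:105230406-105230705: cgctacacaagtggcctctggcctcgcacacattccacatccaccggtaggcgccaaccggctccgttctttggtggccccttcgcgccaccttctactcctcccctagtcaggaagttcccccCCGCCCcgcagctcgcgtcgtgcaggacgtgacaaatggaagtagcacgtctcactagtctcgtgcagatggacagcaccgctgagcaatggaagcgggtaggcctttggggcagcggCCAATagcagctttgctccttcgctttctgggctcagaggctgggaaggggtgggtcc
Fth1, chr19:9959710-9960009: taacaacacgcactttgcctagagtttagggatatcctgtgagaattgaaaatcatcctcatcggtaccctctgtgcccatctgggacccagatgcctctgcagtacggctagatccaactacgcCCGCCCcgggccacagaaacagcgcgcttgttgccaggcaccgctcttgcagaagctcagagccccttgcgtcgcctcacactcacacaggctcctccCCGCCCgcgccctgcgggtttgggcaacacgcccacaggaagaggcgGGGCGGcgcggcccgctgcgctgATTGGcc

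Pgk1 had 1 GC box and 1 CCAAT box, and Fth1 had 3 GC boxes and 1 CCAAT box. Of the 21738 promoters, 37.6% held a GC box and 40.4% a CCAAT box in the same 300 bases, and 8.93% held as many GC boxes as Fth1 or more. Neither stretch held a TATA box (TATAAA on either strand), which 14.2% of promoters did. Pgk1 also held 2 matches to ACGTG, the core of the hypoxia response element and part of the longer E-box CACGTG, on either strand. One match or more stood in 19.7% of promoters and 2 or more in 8.10%. The 300 bases held 20 CpG pairs at Pgk1, 22 at Fth1, 20 at Tmsb4x and 4 at Eno1b, against a median of 9 over all promoters. Eno1b thus had fewer than the median promoter and the other members more. A match of letters is a description and shows no binding.

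Pgk1 lies on the plus strand of chromosome X from 105230706 to 105247305, with 11 exons and its canonical TSS at the first base. Its ASXL1 peak with 1-590 ran from 105230336 to 105230823 and that with 10RA from 105230342 to 105230828. Each covered sequence before the TSS (370 and 364 bases) and the 5′ untranslated part of exon 1 (118 and 123 bases), and no coding sequence or intron. The summits lay 162 and 158 bases before the TSS, inside the stretch printed above. So the ASXL1 peaks of the 2 constructs had nearly the same edges and summit.

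Fragment pileup at the Pgk1 summit, the number of fragments that cover that base, was 204 (177 to 234) for ASXL1 with 1-590 and 203 (176 to 233) with 10RA. On the deposited scale of fold over local background these were 16.0 and 19.7. Relative to the genome background of each library, 4.99 and 3.04 fragments per base, the pileups were 40.9 (35.4 to 46.9) and 66.8 (57.9 to 76.7) times as high. Each ratio rests on 1 library and on how its background was estimated. Among ASXL1 peaks that met a promoter, Pgk1 had the highest fold in both lists: 1st of 228 with 1-590, where the next promoter peak had 6.31, and 1st of 96 with 10RA, where the next had 9.40.

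H2AK119ub at the Pgk1 promoter was listed in 3 of the 4 libraries of the 590 set. Pileups were 24 (15.4 to 35.7) in 1-590, 23 (14.6 to 34.5) in 10RA and 20 (12.2 to 30.9) in 25RA. Relative to genome background these were 11.7, 13.4 and 10.8, with intervals that overlap throughout. The summits lay 139, 116 and 97 bases before the TSS. The vector control had no peak within 2 kb. The vector list was also the shallowest, with a genome background of 0.908 against 1.72 to 2.06 fragments per base. Had the promoter been equally enriched there, scaling pileup and local background by the ratio of genome backgrounds gave a chance of listing of 82.7% from the 1-590 peak, 95.7% from 10RA and 92.3% from 25RA. In the 1067 set only 36EQ listed a peak, with a pileup of 13 (6.92 to 22.2), a summit 223 bases after the TSS and a deposited −log10 q of 0.75, above a q of 0.05. Equal enrichment gave the other libraries of that set a 53.0% to 67.9% chance of listing it, so their lack of a peak was not detectable as a difference at this depth. Among H2AK119ub promoter peaks ranked by fold within a list, Pgk1 was the 5073rd of 12679 in 1-590 (fold 4.22), the 697th of 9187 in 10RA (5.58), the 1502nd of 10899 in 25RA (5.18) and the 1193rd of 1606 in 36EQ (2.82).

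No library listed a peak in the rest of the Pgk1 body. That absence has little weight for the exons, because their sequence is not unique: in exons 2 to 10 none of the 32-base words occurred only once in the genome, and in exon 11 6.74% did. The genome holds 5 intronless copies of the Pgk1 transcript, by alignment of at least 50% of its length, with identities of 74.3% to 99.7%. None of the 5 had a peak in any of the 12 lists. For the copies of highest identity that absence has little weight either, since they share nearly all their sequence with the Pgk1 exons. The copy that reached farthest upstream started at base 80 of the transcript, so none carries sequence from before the TSS. In the ASXL1 peaks themselves 98.2% (1-590) and 97.1% (10RA) of words were unique in the mouse genome. The sequence of the retroviral vectors was not used here, so whether any Pgk1 promoter fragments came from a vector was not tested.

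**Figure D1:**
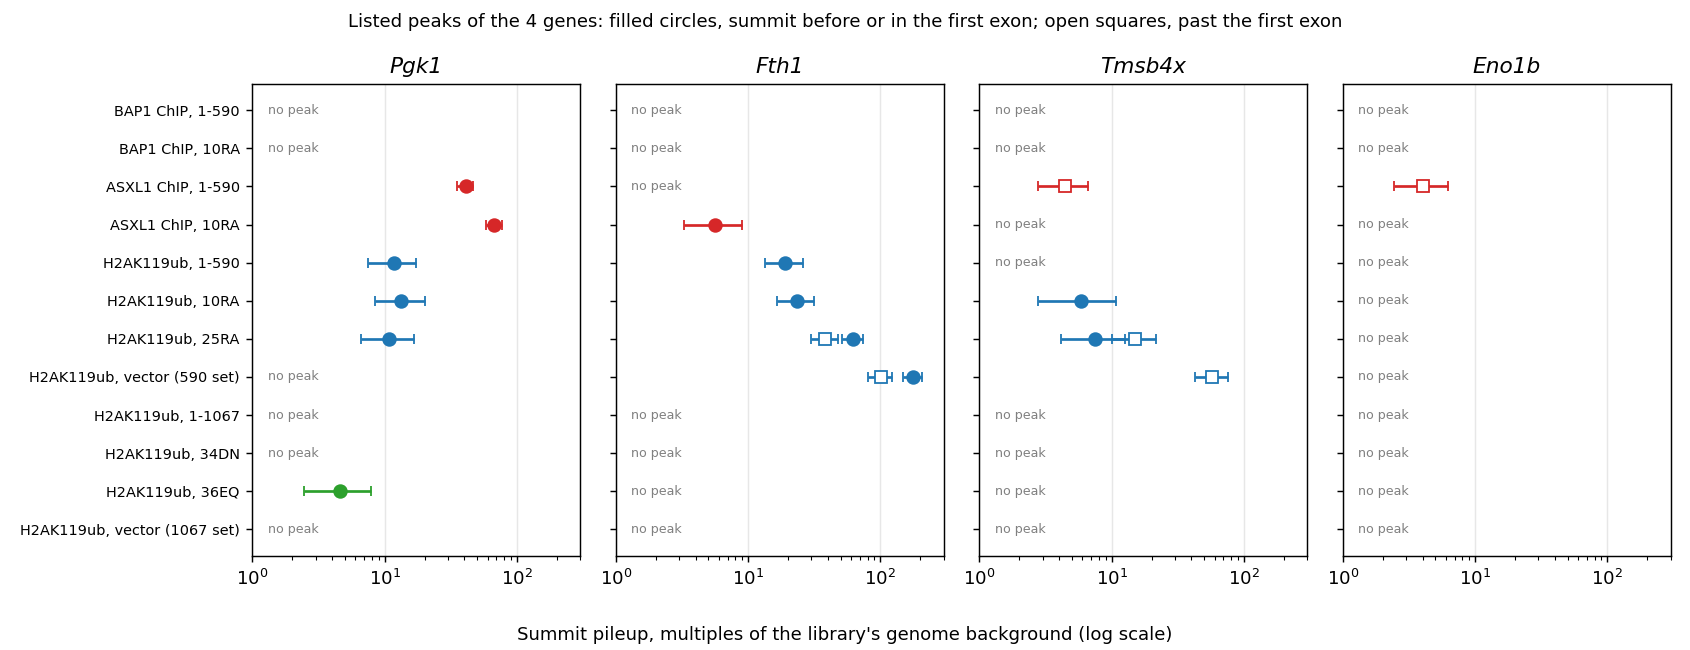
Summit pileup of every listed peak of the 4 genes, in multiples of the genome background of its library (log scale), by library, with exact Poisson 95% intervals. Pgk1 is highest in the ASXL1 libraries (40.9 and 66.8), while Fth1 and Tmsb4x are highest in the vector control of the 590 set (175 and 57.3).

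**Figure D2:**
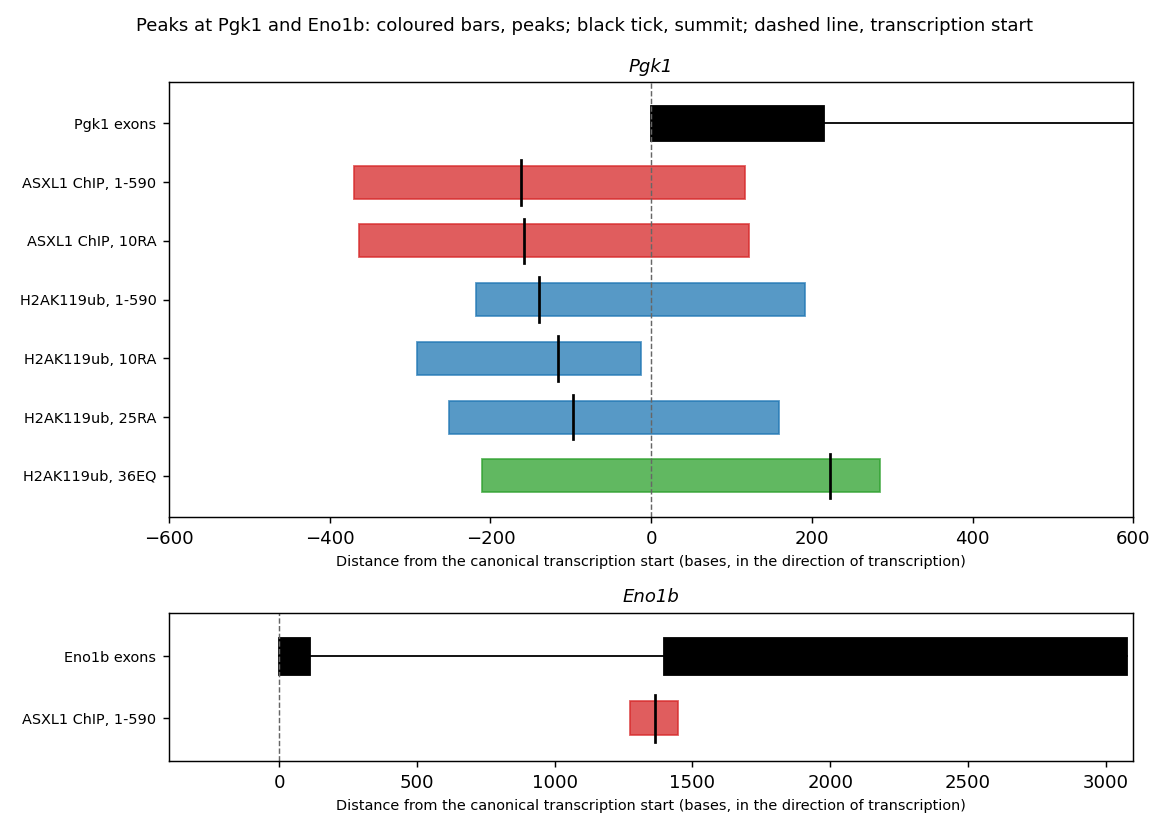
Positions of the peaks (coloured bars) and summits (black ticks) at Pgk1 and Eno1b in bases from the canonical TSS, with exons as black boxes. Pgk1 peaks lie around the TSS with most summits before it, while the Eno1b peak lies mostly in the intron and ends in exon 2.

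Fth1 lies on the plus strand of chromosome 19 from 9957911 to 9962462. Its canonical TSS is at 9960010, and its 4 exons are 338, 147, 126 and 318 bases long. The single ASXL1 peak, with 10RA, ran from 9960102 to 9960272 and lay wholly inside exon 1, with a pileup of 17 (9.90 to 27.2) and a fold of 4.27. The 1-590 library did not list it, with a chance of listing of 99.9% at equal enrichment.

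H2AK119ub was listed on exon 1 of Fth1 in all 4 libraries of the 590 set, but not to the same height or shape. Pileups were 39 (27.7 to 53.3) in 1-590, 40 (28.6 to 54.5) in 10RA, 115 (94.9 to 138) in 25RA and 159 (135 to 186) in vector. The 1-590 and 10RA libraries were low and alike, 25RA was higher, and vector was highest although its background was the lowest. Relative to genome background the values were 18.9, 23.2, 61.8 and 175. The local background differed as well, at 2.78, 2.30, 4.10 and 9.17 times the genome background. By fold over local background the order was the same but the spread smaller, at 5.95, 8.27, 13.5 and 17.2. On the genome-background scale the intervals of 25RA (51.1 to 74.2) and vector (149 to 205) overlapped neither each other nor those of 1-590 (13.5 to 25.9) and 10RA (16.6 to 31.6). Whether these pileups reflect the H2AK119ub mark alone was not tested.

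The upstream edges of the Fth1 exon 1 peaks differed as well, while their downstream ends all lay inside exon 1, from 9960316 to 9960344. The 1-590 peak began 332 bases before the TSS and the 10RA peak 128 bases before it. The 25RA peak began 30 bases after the TSS and ended at base 9960316, inside exon 1. The vector peak likewise ran from 9960072 to 9960335 and held no base from before the TSS or from the intron. By fold, the vector peak (17.2) was the first of 8618 promoter peaks in its list and the 25RA peak (13.5) the second of 10899. The Fth1 peak of 10RA was the 53rd of 9187 and that of 1-590 the 2056th of 12679.

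The last exon of Fth1, bases 9962145 to 9962462, carried a second peak in 25RA and vector and in no other library. In 25RA it ran from 9962171 to 9962405 with a pileup of 71 (55.5 to 89.6). In vector it ran from 9962166 to 9962407 with a pileup of 91 (73.3 to 112). Both lay inside the exon, and their edges differed by 5 and 2 bases. At equal enrichment the 1-590 and 10RA libraries would each have listed them with a chance of 100%. No Fth1 peak was listed in the 1067 set, where the nearest, in 36EQ, lay 5327 bases outside the promoter window.

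In exon 1 of Fth1 99.7% of 32-base words occurred once in the genome, and in exon 4 73.9% did; exon 3, with 29.5%, was the least unique. The genome holds 4 intronless copies of Fth1, at identities of 72.9% to 88.2%, and none had a peak in any list.

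Tmsb4x lies on the minus strand of chromosome X from 165990089 to 165992311, with its canonical TSS at 165992160 and 3 exons. The gene is 2223 bases long, so a window of 2 kb around its TSS takes in almost all of it. The ASXL1 peak with 1-590, from 165990133 to 165990395, lay wholly in exon 3, the last, with its summit 1910 bases after the TSS. Its pileup was 22 (13.8 to 33.3) and its fold 3.45. The 10RA library did not list it, with a chance of listing of 85.8% at equal enrichment. This peak was counted as a promoter peak by the window alone, and within 1 kb of the TSS no library had any peak.

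H2AK119ub peaks on exon 3 of Tmsb4x were listed in 25RA, with a pileup of 28 (18.6 to 40.5), and in vector, with 52 (38.8 to 68.2). Relative to genome background these were 15.1 (10.0 to 21.8) and 57.3 (42.8 to 75.1), so the vector library was again above 25RA. The vector peak, 165990116 to 165990526, covered 93.2% of the exon and the 25RA peak, 165990170 to 165990525, 80.7%. Their 5′ edges lay 5 and 6 bases inside the start of the exon. Neither 1-590 nor 10RA listed it, with a chance of at least 99.97% had they been equally enriched. By fold it was 13.02 in vector and 5.93 in 25RA.

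A different region, upstream of Tmsb4x, had weak H2AK119ub peaks in 10RA and 25RA. Summits lay 1292 and 1438 bases before the TSS, with pileups of 10 (4.80 to 18.4) and 14 (7.65 to 23.5). Vector would have listed these with a chance of 43.2% and 52.5% at equal enrichment, so a difference was not detectable there. For 1-590 the chances were 84.3% and 90.4%. The promoter window of Tmsb4x was fully unique, and its 3 intronless copies, at identities of 68.8% to 80.2%, had no peak.

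**Figure D3:**
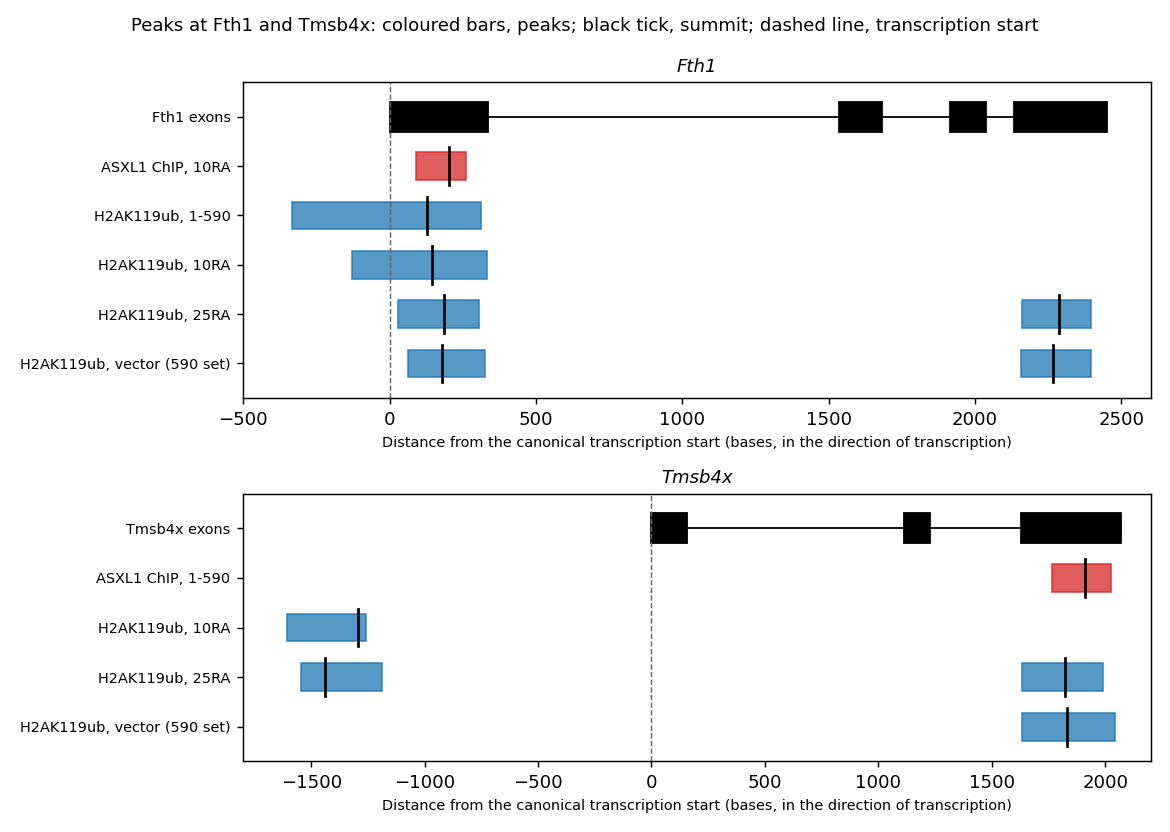
Positions of the peaks (coloured bars) and summits (black ticks) at Fth1 and Tmsb4x in bases from the canonical TSS, with exons as black boxes. In the H2AK119ub lists of 25RA and the vector control, peaks sit inside the first and last exons of Fth1 and the last exon of Tmsb4x. Those of 1-590 and 10RA have peaks across the Fth1 TSS. The lists of 10RA and 25RA each also have a peak upstream of Tmsb4x.

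Eno1b lies on the plus strand of chromosome 18 from 48178402 to 48181479 and has 2 exons. Its 1 listed peak, for ASXL1 with 1-590, ran from 48179675 to 48179851, with a pileup of 20 (12.2 to 30.9) and a fold of 3.42. In the canonical transcript 125 of its bases lay in the intron, the summit among them, and 52 in exon 2. The summit lay 1364 bases after the canonical TSS and 52 bases after a second annotated TSS at 48179714. That base is also where the Eno1 transcript begins to match, at 99.5% identity, so that 138 of the 177 peak bases lay in the retrocopied sequence and 39 before it. Of the 32-base words in the peak 26.7% were unique, with a median of 2 occurrences in the genome. The ASXL1 library with 10RA did not list it, with a chance of listing of 77.2% at equal enrichment. Its nearest peak lay 1580 bases outside the window. No H2AK119ub library had a peak at Eno1b. The parent gene Eno1 had a promoter peak in all 4 H2AK119ub lists of the 590 set and in no ChIP-seq list. Of the 9 other intronless copies that matched Eno1b, Gm7213 had a peak, in the H2AK119ub list of 10RA, and the others had none. For the closest copy, at 99.7% identity, that absence has little weight, since only 3.70% of 32-base words in exon 2 of Eno1b were unique.

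Peaks like those on the last exons of Fth1 and Tmsb4x were counted across the genome. An exon-filling peak was defined, after these peaks had been seen, as one with at least 90% of its length inside an exon past the first and covering at least 50% of that exon. Among 20396 genes with more than 1 exon, 0.0883% had one for ASXL1 with 1-590 and 0.0441% with 10RA. In the 590 set of H2AK119ub the shares were 0.691% in 1-590, 0.799% in 10RA, 1.01% in 25RA and 0.677% in vector. These shares were close to each other, and Fth1 and Tmsb4x had such a peak only in 25RA and vector, and Tmsb4x also for ASXL1 with 1-590. In the BAP1 lists and the 1067 set 1 to 3 genes had one, none of them a member.

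The libraries differed in how strong such peaks were. Of the 200 strongest peaks by fold, 12 were exon-filling in vector and 4 in 25RA, against 0 in 1-590 and 0 in 10RA. The highest fold of such a peak was 17.2 in vector, 11.0 in 25RA, 7.83 in 1-590 and 6.54 in 10RA; the median was 3.88, 3.19, 3.06 and 3.04. Tmsb4x was the second and Fth1 the seventh of 145 in vector, and they were the tenth and the fourth of 213 in 25RA. For ASXL1 with 1-590 Tmsb4x was the second of 18, after exon 17 of Kdm6a.

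Fth1 and Tmsb4x stood among the same genes in vector and 25RA, named here after their values were seen. Of the 12 genes with the strongest such peaks in vector, 11 also had one in 25RA, 0 in 1-590 and 1 in 10RA. They included Cpa3 (fold 17.2 in vector and 11.0 in 25RA) and Cma1, mast cell proteases, and Fcer1a, a chain of the IgE receptor of mast cells and basophils. Others were Spp1, a secreted phosphoprotein (11.1 and 7.89), Psap and Ctsd of the lysosome, Lgals3, a lectin abundant in macrophages, and B2m of the MHC class I complex. Over all genes with such a peak, vector and 25RA shared 46, which is 33.3% of the vector list and 22.4% of the 25RA list. Vector shared 26 with 1-590, 18.8% of the vector list and 18.4% of that of 1-590, and 24 with 10RA, 17.4% and 14.7%. The 25RA list shared 37 with 1-590, 18.05% of the 25RA list and 26.2% of the other, and 38 with 10RA, 18.5% and 23.3%. No list of cell type markers was tested on these peaks, and the part of the cell makeup of the libraries was not tested. Whether the signal of exon-filling peaks is the H2AK119ub mark was not tested either.

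**Figure D4:**
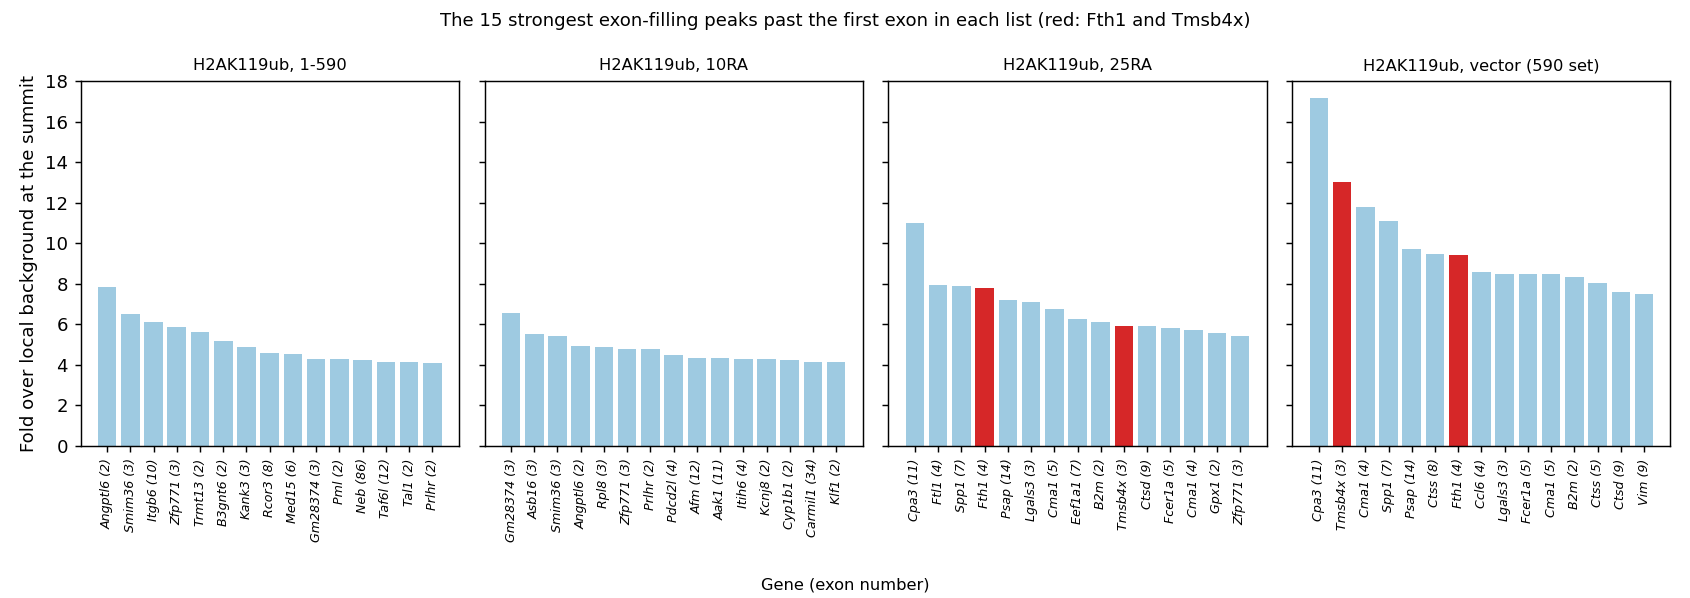
Fold over local background of the 15 strongest exon-filling peaks in each H2AK119ub list of the 590 set, by gene with the exon number in brackets, Fth1 and Tmsb4x in red. The vector and 25RA lists are led by Cpa3 and hold both members, while the 1-590 and 10RA lists hold other genes and reach 7.83 and 6.54.

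The wider pathways and relatives were compared on lists written with earlier results known. The H2AK119ub counts below stand beside shares over all genes of 55.2% in 1-590, 41.3% in 10RA, 47.8% in 25RA and 40.5% in vector, and 6.96% to 9.21% in the 1067 set. Of 21 glycolysis genes, Pgk1 and Eno1b had an ASXL1 promoter peak with 1-590 and Pgk1 with 10RA, and none had a BAP1 peak. An H2AK119ub promoter peak stood at 19 of them in 1-590 (90.5%), 14 in 10RA (66.7%), 14 in 25RA (66.7%) and 12 in vector (57.1%), and at 2 to 7 in the 1067 set. Of 16 iron genes, only Fth1 had an ASXL1 promoter peak, and H2AK119ub promoter peaks stood at 14, 10, 14 and 10 in the same order (87.5%, 62.5%, 87.5% and 62.5%). In 1-1067, 34DN, 36EQ and vector of the 1067 set they stood at 2, 0, 3 and 0 (12.5%, 0%, 18.8% and 0%). Of 15 genes of actin monomer handling, only Tmsb4x had an ASXL1 promoter peak, and H2AK119ub peaks stood at 12, 9, 10 and 10 (80%, 60%, 66.7% and 66.7%). In the 1067 set, in the order used for iron, they stood at 6, 2, 5 and 2 (40%, 13.3%, 33.3% and 13.3%).

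None of the 20 abundant housekeeping genes had a promoter peak in any ChIP-seq list, which at shares of 0.363% to 1.06% over all genes is no result about these genes. H2AK119ub promoter peaks stood at 19 of the 20 in 1-590 (95%), 8 in 10RA (40%), 13 in 25RA (65%) and 10 in vector (50%), so that of 10RA was near its background. In 1-1067, 34DN, 36EQ and vector of the 1067 set they stood at 4, 3, 3 and 4 (20%, 15%, 15% and 20%). The strongest in 1-590 were at Tpt1 (fold 9.55) and at Eif4a1 (8.20), a helicase of translation initiation. Of the 12 closest relatives of the 4 genes none had a ChIP-seq promoter peak either. The strongest H2AK119ub promoter peaks among them in 1-590 were at Eno1 (5.88) and Eno4 (4.64). The ferritin light chain gene Ftl1, the partner of Fth1, had an exon-filling peak on its last exon in 25RA (fold 7.91) and vector (7.47) and in no other library, as Fth1 did; Ftl1 was named for this after its values were seen.

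The retroviruses carry coding sequence of BAP1 and ASXL1, so the genomic exons of these genes were looked at in the same way. Bap1 and Asxl1 had no peak in any of the 4 ChIP-seq lists. In the H2AK119ub lists at most 1 of the 16 exons of Bap1 past the first, and at most 1 of the 11 of Asxl1, met a peak in any library. The species of the retroviral inserts was not given in the sources used here.

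No other gene had the listing pattern of Pgk1 over all 12 libraries. The nearest differed in 2 libraries, 61 genes in all, of which G3bp2, Htra1 and P4htm had the largest ASXL1 fold (3.71, 3.45 and 2.97). Adamts17, Rnf152 and Klf14 matched Fth1 in all 12 libraries, with ASXL1 folds of 2.79 to 3.43. Minar1 alone matched Tmsb4x (2.67), and 94 genes matched Eno1b, led by Gm8127, Clec2e and Or5h24 (4.005, 3.67 and 3.50). All 10 of these folds were below those of Pgk1, which its first rank among ASXL1 promoter peaks in both lists had already fixed. A promoter peak in at least 6 libraries, as at Pgk1, was listed at 5.88% of genes, and in at least 4, as at Tmsb4x, at 31.1%.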

How the data were processed

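The 12 deposited peak lists (mm39, which is GRCm39) were made with MACS3 3.0.3, Bowtie2 2.5.4, fastp 0.24.0, Picard and SAMtools, per the submitters' processing notes; use of a control library was not given in the sources used here. Each deposited list gives the authors' fold at the summit (a ratio of pileup to local background), −log10 p and −log10 q, and a score that was not used for results. CUT&RUN data were normalized to E. coli spike-in, per the labels. The labels' descriptions name antibodies to BAP1 and ASXL1 where their protocols name HA, and names of peaks in the lists of 3 mutants (25RA, 34DN, 36EQ) hold codes that differ from the titles, on which the groups rest.

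From fold and p, whole pileups and local backgrounds were recovered; 10 peaks failed, all with −log10 p over 316 and none at a member. Genome background, the lowest recovered background, ran from 0.908 to 5.46 fragments per base. Lists reach p of 0.001. Promoters were 2 kb on each side of the GENCODE vM39 canonical TSS, with 1 base of overlap. Chances of listing at equal enrichment scaled pileup and background by the ratio of genome backgrounds and used the Poisson distribution. Copies were sought with minimap2 2.31-r1302, requiring 50% of the transcript, and words of 32 bases were counted over the genome. Python 3.11.15, scipy 1.17.1 and pysam 0.24.0 were used, and functions were tested on simulated data. The members and gene lists were chosen with earlier results of these data known. The 4 members are named always; of each list, genes with an ASXL1 promoter peak, otherwise the 2 with the largest fold in H2AK119ub 1-590; up to 3 genes of like pattern by ASXL1 fold; and copies only where a peak met one. No test was run, since each condition has 1 library.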

Additional observations from a re-analysis of the deposited data

How the results depend on the processing

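With 1 kb on each side of the TSS, 0 libraries had a peak at Tmsb4x and 0 at Eno1b, and with 5 kb 2 had one at Eno1b. The other 17 counts of libraries over the 4 genes moved by less than 1.5 times. The background shares of genes with a promoter peak moved in the ChIP-seq lists, given in the order BAP1 1-590, BAP1 10RA, ASXL1 1-590 and ASXL1 10RA. With 1 kb they were 0.156%, 0.216%, 0.524% and 0.216%; with 5 kb 1.18%, 1.78%, 3.18% and 1.42%; with any annotated TSS 0.879%, 1.38%, 2.53% and 1.11%; and with q of 0.05 or less 0.0644%, 0.106%, 0.221% and 0.101%. With that q they were 4.38% in 1-1067, 3.43% in 34DN, 4.65% in 36EQ and 2.999% in the vector of that set. The other 40 shares moved by less. These changes follow from the size of the window or from fewer peaks.

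Thinned to the lowest background of the set, at p of 1e-05, the chance of staying listed was lower for 9 peaks. At Pgk1 it was 50.9% (1-590), 86.4% (10RA), 71.3% (25RA) and 2.91% (36EQ). At Tmsb4x it was 48.7% for the ASXL1 peak, 94.3% for the last exon in 25RA, and 7.67% (10RA) and 18.7% (25RA) upstream. At Eno1b it was 44.7%. The other 8, which include both ASXL1 peaks of Pgk1, moved by under 5 percentage points. Among them, the ASXL1 peaks of Pgk1 and Fth1 with 10RA and the vector peaks of Fth1 and Tmsb4x came from the library of lowest background in their set. These were not thinned and their p was below 1e-05, so their chance could not fall. With 80% of the exon covered, chosen after seeing the data, genes with an exon-filling peak fell to 52, 58, 72 and 44 (1-590, 10RA, 25RA, vector) and to 7 and 1 for ASXL1. The last exon of Fth1 (73.9% covered in 25RA and 76.1% in vector) and the ASXL1 peak of Tmsb4x (59.6%) then no longer counted, while Tmsb4x in 25RA and vector still did. No paired analysis was possible because each condition has 1 library. Depth limits the vector control of the 590 set most.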

Other observations

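The strongest ASXL1 peaks outside the 4 genes give the setting of the Pgk1 peak. Of the 5 peaks that ranked above it on the main chromosomes with 1-590, 4 were also listed in both BAP1 libraries and the fifth was exon 17 of Kdm6a, an H3K27 demethylase gene, also on chromosome X. Exon 17 of Kdm6a runs from 18120243 to 18121021. Its peak began 7 bases inside the exon with 1-590 and 4 bases inside with 10RA, with pileups of 273 and 289, and was listed in no BAP1 or H2AK119ub library. With 10RA, exon 16 of Kdm6a had a further exon-filling peak with a pileup of 78. Pgk1 and Kdm6a thus had pileups of 203 to 289 in both ASXL1 libraries and no peak in either BAP1 library. They were not alone in this: a peak at Cmss1 and Filip1l (chromosome 16, 57211822 to 57212033 with 1-590) had pileups of 150 and 90 and folds of 15.9 and 15.7, and one on chromosome 18 away from genes (68825141 to 68825356) had pileups of 94 and 73 and folds of 12.8 and 13.1. Both were listed, like Pgk1, in 6 libraries, 4 of them H2AK119ub. These peaks were named after their values were seen, and no cause was tested.

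Spp1 stood with Fth1 and Tmsb4x in vector and 25RA. For ASXL1 with 1-590 its exon 7 had a weak exon-filling peak, with a fold of 2.79 and a pileup of 19. At the genome background of that library a pileup of 13 was enough for listing. Fth1 had no peak in that list. Exon 4 of Ftl1 had pileups of 44 in 25RA and 35 in vector, against 71 and 91 for exon 4 of Fth1. On a per-background scale these were 23.7 and 38.6 for Ftl1 and 38.2 and 100 for Fth1. Vector was thus the higher for Fth1 by pileup and on this scale. For Ftl1 it was the higher on this scale only, since pileup and fold (7.91 in 25RA and 7.47 in vector) were higher in 25RA. No interval was computed for Ftl1, so its order is not resolved.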
